A study of Homo sapiens with 42 samples.

Results

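K562 cells kept in 5 μM JTE-607 for 6 h (JTE 6h) were compared with K562 cells kept in the same dose for 1 h (JTE 1h), by sequencing poly(A) mRNA. The comparison is set by the labels and not by any measured value: it holds the 3 JTE 6h and the 3 JTE 1h mRNA libraries, which are 6 of the 42 libraries of the series. It asks how far the response to the compound grew between the 2 exposures. K562 is an established line from a chronic myeloid leukaemia in blast crisis, driven by the BCR-ABL1 kinase. All groups were the same line, and the labels name no genetic change. The other groups used here were untreated cells (CTRL) and JTE-607 at 5 μM for 18 h (JTE 18h), imatinib, an inhibitor of BCR-ABL1, at 1 μM for 1 h and 6 h (IM 1h, IM 6h), KCl, an osmotic stress, at 110 mM for 1 h and 3 h (KCl 1h, KCl 3h), and nuclear RNA depleted of ribosomal RNA from CTRL and JTE 1h cells. Every group had 3 biological replicates. The study's methods give the lengths of the exposures and do not say whether they ended together.

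RNA polymerase II transcribes past the end of a gene until the nascent RNA is cut at the poly(A) site. The cut is made by CPSF73, the nuclease subunit of the cleavage and polyadenylation complex, shortly downstream of a hexamer such as AATAAA, and the new end is then given a poly(A) tail while the polymerase is removed from the template. JTE-607 is a prodrug whose active form binds CPSF73 in its catalytic centre. When cutting fails, transcription can run on into a neighbouring gene.

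The 6 libraries held 16971725 to 21826935 counts each, and the deepest of the 27 mRNA libraries held 62953314 counts. The JTE 6h libraries had counts for 25704 to 26851 genes and the JTE 1h libraries for 24821 to 25109, with 11.2% to 13.2% and 10.5% to 12.2% of the counts on mitochondrial genes. The 14 K562 marker genes summed to 4860 to 7528 CPM (counts scaled to library size) at 6 h and 5035 to 6496 CPM at 1 h. Of 12 markers of T cells, B cells, monocytes, fibroblasts, epithelium and endothelium, 9 had enough counts to be tested and none passed by edgeR or DESeq2 (1 at an unadjusted p under 0.05), with 235 to 259 CPM in sum at 6 h and 262 to 275 CPM at 1 h, mostly from EPCAM and KRT18. The B cell marker MS4A1 had 0 counts, which allows up to 3 counts per library, and CD3E and VWF reached at most 7 and 2 counts in any library.

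Between 1 h and 6 h of JTE-607, the genes that rose were mostly ones with few reads in untreated K562 cells, and most of those that fell were well covered there. Of 18095 genes tested, 1671 (9.23%) passed, 923 higher (5.1%) and 748 lower (4.13%) at 6 h than at 1 h. A gene passed with a Benjamini-Hochberg adjusted p under 0.05 in edgeR's quasi-likelihood test and a change of more than 0.6 on the log2 scale, which is 1.52-fold. With only these 6 libraries in the fit 800 genes passed, 431 higher and 369 lower, and 789 of them were among the 1671. The median log2 fold change over all genes was 0.04. The genes that rose had a median absolute change of 1.52 on the log2 scale and those that fell 0.95. CPM is not corrected for gene length, so the levels below compare each gene with itself. It is relative to the library, so less of an RNA in each cell and fewer cells that hold it cannot be told apart. The median level of the 923 genes that rose was 0.827 CPM in CTRL, 0.961 at 1 h, 3.45 at 6 h and 1.31 at 18 h, and that of the 748 genes that fell was 14.6, 13.2, 6.74 and 12 CPM. Of the genes that rose, 495 had a CTRL mean under 1 CPM and 120 had one of 10 CPM or more, whereas of those that fell, 42 lay under 1 CPM and 446 at 10 CPM or more. Among genes of 0.25 to 1 CPM in CTRL, 7.84% of 3456 rose and 1.16% fell, and among those of 10 to 100 CPM, 1.79% of 6542 rose and 6.33% fell. Under 0.25 CPM, 19.7% of 1136 rose and 0.176% fell. The low-count filter kept genes that low in CTRL only through reads in other groups, which can include JTE 6h. Their split between rises and falls was therefore partly set by the filter.

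**Figure D1:**
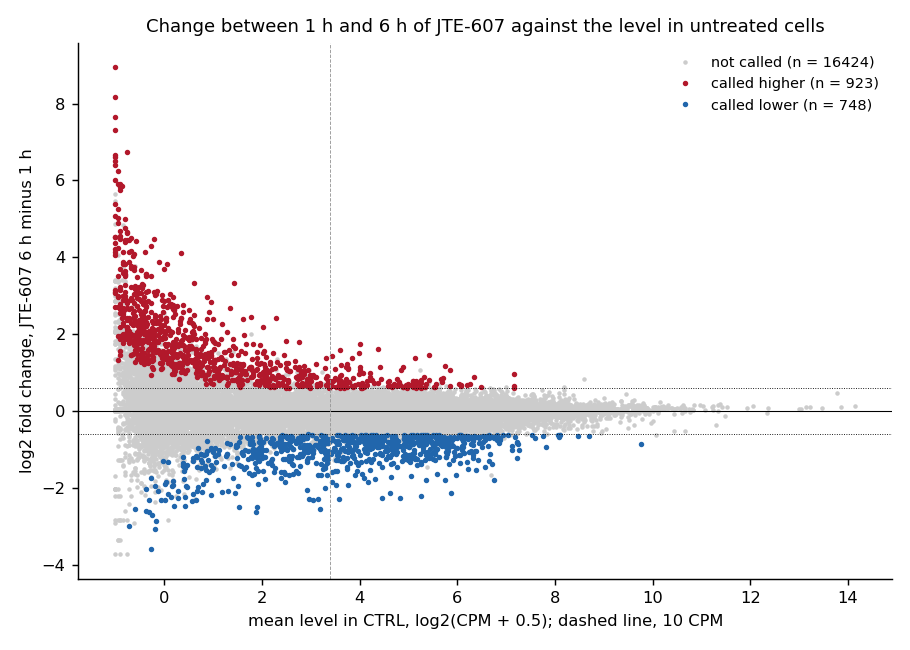
Log2 fold change of each tested gene between JTE 1h and JTE 6h (vertical axis) against its mean level in CTRL on the log2(CPM + 0.5) scale (horizontal axis), with genes that passed higher and lower coloured. The risers sit mostly left of the dashed line at 10 CPM and the fallers mostly right of it, with 120 risers and 446 fallers at 10 CPM or more. Fitted changes of genes near 0 counts at 1 h depend on the prior count of the fit.

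The JTE 6h and JTE 1h libraries did not overlap for 4323 genes (23.9% of those tested), and 883 of the 923 risers and 721 of the 748 fallers were among them. Against CTRL, the same libraries give 154 genes at JTE 1h (0.851%), 70 higher (0.387%) and 84 lower (0.464%), and 2388 at JTE 6h (13.2%), 1217 higher (6.73%) and 1171 lower (6.47%). These 2 comparisons share the CTRL libraries with each other and the JTE libraries with the 6 h against 1 h comparison, so their counts are given side by side with no test between them. The 1 h count rests on the other groups in the fit: it was 5 with only the JTE 1h and CTRL libraries, 62 without JTE 1h replicate 3, 70, 76 and 93 without CTRL replicates 1 to 3, and 258 with the same-numbered replicates as a block.

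TSPOAP1, which encodes a scaffold protein that binds the mitochondrial translocator protein TSPO, was among the 12 genes with the largest rise and passed at both exposures against CTRL. It counted 23.5, 31.1 and 37.3 CPM in JTE 1h replicates 1 to 3 and 332, 314 and 275 CPM in JTE 6h replicates 1 to 3. CTRL cells had 2.54, 1.52 and 2.51 CPM. The 1 h libraries were thus all above CTRL and all below 6 h, with a 6 h against 1 h log2 fold change of 3.32 (SE 0.257, edgeR adjusted p = 2.21e-08), a 1 h against CTRL change of 3.81 and a 6 h against CTRL change of 7.13. At 18 h it still stood at 219, 250 and 214 CPM. TSPOAP1 lies at chr17:58301228-58328760 of hg38 on the minus strand, and starts 2124 bases past the end of MIR142HG, the host transcript of miR-142, on the same strand. MIR142HG is the nearest upstream gene but had under 10 CPM in CTRL, the limit set below for an expressed neighbour. It also rose between 1 h and 6 h (log2 fold change 1.40). The antisense gene TSPOAP1-AS1, named here as a neighbour of TSPOAP1, overlaps TSPOAP1 and went from 1.35 to 7.7 CPM. Read pairs were counted without regard to strand. Pairs over exons of both genes were left out, and a pair over exons of only 1 counts for that gene, whichever strand it came from.

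AOC3 and AOC2 encode copper-containing amine oxidases and lie in a row downstream of PSME3, which encodes a proteasome activator subunit. AOC3 counted 0.734, 1.45 and 3.63 CPM at 1 h and 17.4, 18.8 and 39.4 CPM at 6 h, a log2 fold change of 3.70 (SE 0.48, edgeR adjusted p = 1.29e-05). AOC2 counted 1.52, 2.64 and 4.43 CPM at 1 h and 16.1, 19.1 and 31.6 CPM at 6 h, a log2 fold change of 2.96 (SE 0.359, adjusted p = 5.42e-06). The groups did not overlap for either gene, and replicate 3 was the highest library of each group. At 18 h both had left that level, with 0.732 to 0.774 CPM for AOC3 and 2.38 to 3.21 CPM for AOC2. PSME3 itself did not pass, with 367, 465 and 406 CPM at 1 h and 290, 402 and 258 CPM at 6 h (log2 fold change -0.38).

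ZDHHC11, which encodes a palmitoyltransferase of the DHHC family, had the largest log2 fold change of the 12, at 4.11 (SE 0.693, edgeR adjusted p = 2.77e-04). Its levels were 0.472, 0.622 and 1.82 CPM at 1 h and 11.7, 16.6 and 21.9 CPM at 6 h, with no overlap. It starts inside the span of BRD9, a bromodomain gene on the same strand (57.9 CPM at 1 h and 44.1 CPM at 6 h, not passing), and it has a near-identical copy, so its count is uncertain. PYGM, the muscle form of glycogen phosphorylase, counted 1.15, 1.04 and 2.72 CPM at 1 h and 5.70, 7.001 and 36.4 CPM at 6 h. All 6 h libraries lay above all 1 h libraries, but replicate 3 stood far above replicates 1 and 2, and the mean of 16.4 CPM at 6 h has an SD of 17.4 (n = 3).

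The remaining 7 of these 12 genes rose by 2.39 to 2.85 on the log2 scale with no overlap between the groups. They were CFAP70, a protein of cilia, ADCY10P1, a pseudogene of soluble adenylyl cyclase, BAAT, which conjugates bile acids to amino acids, TCAP, the titin cap protein of muscle, AJM1, a component of apical junctions, and the non-coding RNAs LINC01963 and ZNNT1. AJM1 stayed at 12.2 to 18 CPM at 18 h, against 11 to 20.8 CPM at 6 h, and ADCY10P1 returned to 1.82 to 2.56 CPM, against 9.98 to 17.2 CPM at 6 h.

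**Figure D2:**
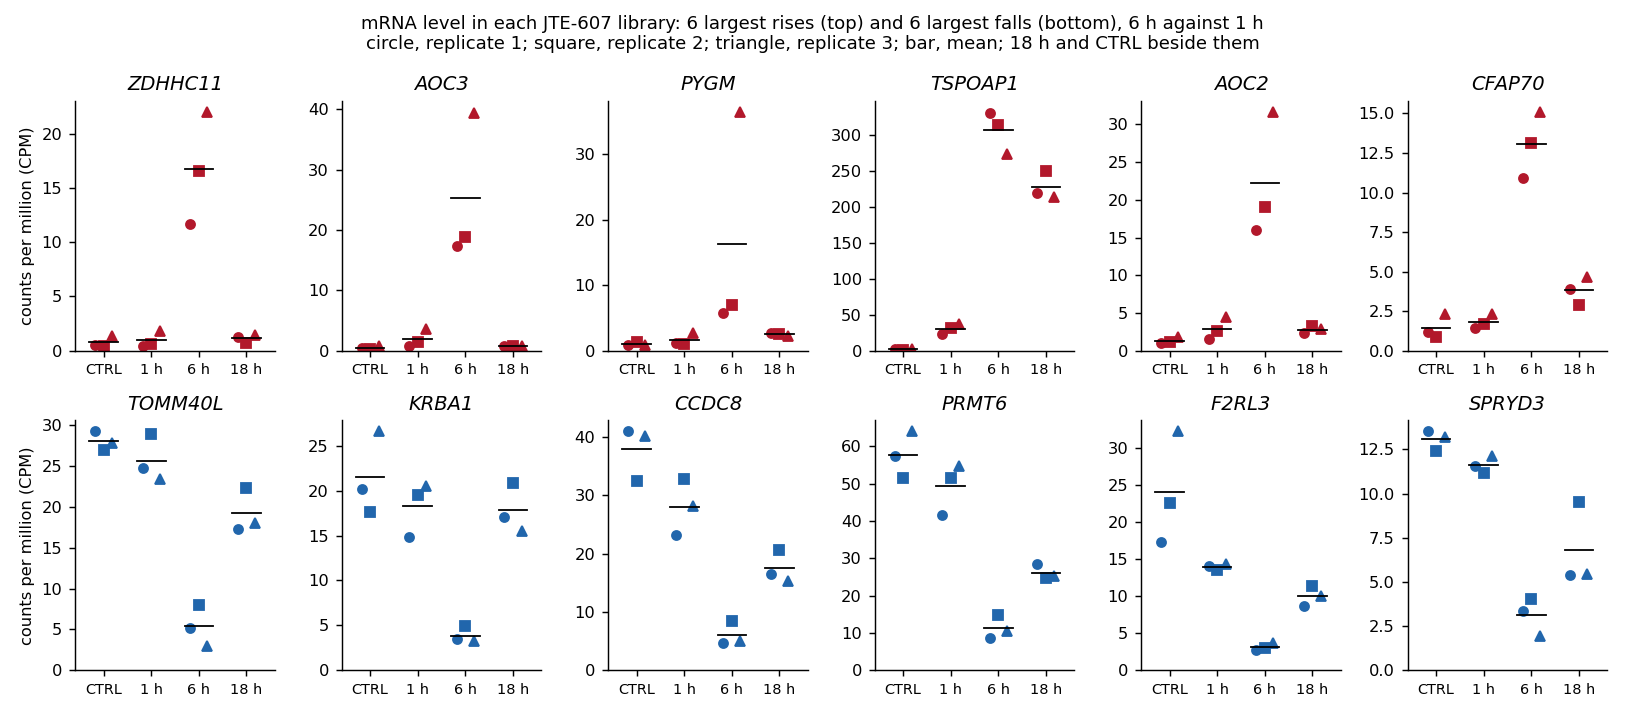
Level in CPM (vertical axis, from 0) of the 6 largest rises and 6 largest falls in each CTRL, JTE 1h, JTE 6h and JTE 18h library, 1 point per library and a bar at the group mean. For every gene shown, the 3 JTE 6h points lie on the same side of the 3 JTE 1h points, and TSPOAP1 lies between 214 and 250 CPM at 18 h.

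Many of these genes start a short way past the end of an expressed gene on the same strand. AOC2 starts 842 bases and AOC3 7426 bases past the end of PSME3, PYGM 4309 bases past SF1, ADCY10P1 1046 bases past NFYA, TCAP 703 bases past STARD3, BAAT 4114 bases past MRPL50, CFAP70 16242 bases past ANXA7 and LINC01963 10742 bases past XRCC5. None of the upstream genes PSME3, SF1, NFYA, STARD3 and MRPL50 passed, with log2 fold changes of -0.38, -0.23, 0.22, -0.06 and -0.06. MIR142HG, before TSPOAP1, did pass and was higher at 6 h (1.40). The changes of ANXA7 and XRCC5 are not given here. These neighbours are named because of the genes that follow them, after their values were seen. The hexamer that marks the poly(A) site is shown here for some of the upstream genes in which it was found. Neither form was found in the last 50 annotated bases of ZNF706, before ZNNT1, LDHA, before LDHC, or JUND, before IQCN. Each line gives 30 bases from the last 50 annotated bases of the upstream gene, read 5′ to 3′ on its own strand from hg38, with the hexamer in capitals.
STARD3, before TCAP, chr17:39663441-39663470, plus strand: tgtattaagccaATTAAAaacatgaattta
PSME3, before AOC2 and AOC3, chr17:42843719-42843748, plus strand: atctccctctgaAATAAAgtttcctcatct
SF1, before PYGM, chr11:64764615-64764644, minus strand: gatgttccattgAATAAAagagcagtgtgg
MIR142HG, before TSPOAP1, chr17:58330888-58330917, minus strand: ggacccaatgctAATAAAgactggactgtg
RABGGTB, before MSH4, chr1:75795046-75795075, plus strand: aatgatgcacaaAATAAAtggctgttgaaa
DENND5A, before SCUBE2, chr11:9138829-9138858, minus strand: tatggcccacttAATAAAacacctgaaaca

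AATAAA and its variant ATTAAA were searched on the gene's own strand only, and a match is a description of these letters, not a mapped cleavage site. Of all 12704 protein-coding genes tested, 7764 had AATAAA in that window, 1786 had ATTAAA and no AATAAA, and 3154 had neither.

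MSH4, SCUBE2, IQCN, LINC02798 and LDHC had the largest fitted rises among genes that start within 10 kb past an expressed same-strand gene and overlap no tested gene. They were close to 0 at 1 h and in CTRL, and were tested only because other libraries, which can be those of JTE 6h, had reads. They were also picked for their rise, so the ratios below describe them and give no separate support for it. MSH4, a meiotic relative of the mismatch repair proteins, had 3 counts over the 1 h libraries and 90 over the 6 h libraries, a ratio of CPM of 31.4 (95% interval from counting, 10.4 to 155). SCUBE2, a secreted protein with EGF repeats, had 6 and 140 counts, a ratio of 24.4 (10.9 to 67.7). IQCN had 10 and 226 counts, a ratio of 23.7 (12.6 to 50), and the non-coding LINC02798 had 1 and 72, a ratio of 75.4 (13.1 to 3020). LDHC, the lactate dehydrogenase of the testis, had 0 and 18 counts, a ratio whose lower 95% limit from counting is 4.6 and which has no upper limit. JTE 6h replicate 3 was the highest library for all 5 genes, and without it LDHC no longer passed. The upstream genes LDHA, SRGAP2C, RABGGTB and DENND5A had log2 fold changes of 0.07, 0.39, 0.10 and -0.06 and none passed; SRGAP2C has near-identical copies, so its count is uncertain. JUND, upstream of IQCN, counted 105, 87.7 and 89 CPM at 1 h and 60.2, 69.4 and 62.2 CPM at 6 h, a change of -0.56 that was within the fold threshold.

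The share of genes that rose differed with their position relative to expressed genes. To narrow the range of levels compared, genes of 0.25 to 10 CPM in CTRL were classed by what lies next to them, with 10 CPM in CTRL as the limit for an expressed neighbour. The classes were not matched for level within that range. Of 348 genes that start up to 5 kb past an expressed same-strand gene, 24.7% rose and 3.45% fell, with a median log2 fold change of 0.43. Of 176 genes at 5 to 10 kb 15.3% rose, and of 590 genes at 10 to 50 kb 8.14% rose. Of 366 genes that run towards an expressed gene of the opposite strand, with at most 10 kb between the ends, 10.4% rose, and of 2505 isolated genes 3.91% rose, against 5.1% over all genes tested. At 10 CPM or more in CTRL more of the nearest class fell than rose, with 2.18% of 412 genes higher and 10.4% lower, against 1.65% and 2.43% of 2423 isolated genes. Over all levels 15.7% of 848 genes of the nearest class rose and 6.49% fell, against 3.22% and 2.22% of 5189 isolated genes. With only the 6 JTE libraries in the fit, 14.7% of the 348 genes of the nearest class and 1.12% of the 2505 isolated genes rose. With the same-numbered replicates as a block in that fit the shares were 36.2% and 5.47%, where 7.55% of the 15558 genes tested in it rose. In both fits the shares count genes of a class that were not tested there as not passing, so they are not on the same base as the 7.55%. Without JTE 1h replicate 2 the share of the 2505 isolated genes was 2.55%. In the IM 6h against IM 1h comparison, 8.62% of the same 348 genes and 5.35% of the 2505 isolated genes were higher, against 4.58% over all genes.

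**Figure D3:**
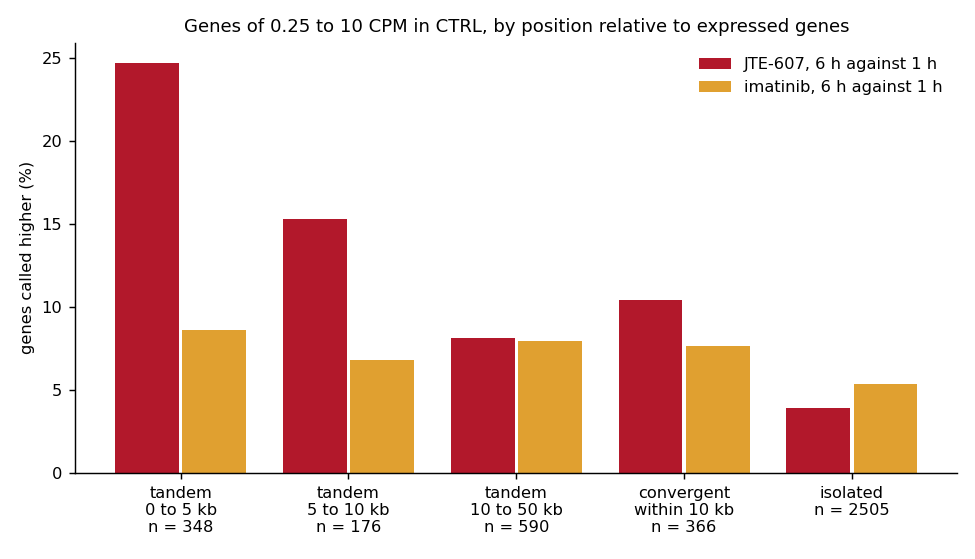
Percentage of genes higher at the later time (vertical axis, from 0) in each class of position, for JTE 6h against JTE 1h and for IM 6h against IM 1h, among genes of 0.25 to 10 CPM in CTRL. The JTE bars fall from 24.7% at 0 to 5 kb to 3.91% for isolated genes, and the IM bars lie between 5.35% and 8.62%.

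The same contrast was followed in each library by a score, the mean log2(CPM + 0.5) of the 524 genes within 10 kb past an expressed gene minus that of the 2505 isolated genes. It was 0.00885, 0.106 and 0.256 in JTE 1h replicates 1 to 3 and 0.305, 0.415 and 0.602 in JTE 6h replicates 1 to 3. Every 6 h library lay above every 1 h library, and each 6 h library exceeded its same-numbered 1 h library by 0.296, 0.309 or 0.346. The means were 0.44 ± 0.15 and 0.12 ± 0.12 (SD, n = 3 each), a difference of 0.32 with a 2-sided exact permutation p of 0.1, the smallest that 3 against 3 libraries allow. In CTRL the score was -0.08 ± 0.11 and at 18 h 0.09 ± 0.0024, below all 6 h libraries. The difference was 0.38 for genes within 5 kb, 0.18 at 5 to 10 kb, 0.04 at 10 to 50 kb and 0.08 for facing genes. The exact p-values were 0.1, 0.2, 0.7 and 0.5. In imatinib the score was -0.05 ± 0.05 at 1 h and -0.03 ± 0.03 at 6 h (exact permutation p = 0.7). By class, the imatinib means at 1 h and 6 h were -0.067 and -0.054 within 5 kb and -0.0027 and 0.03 at 5 to 10 kb. They were 0.075 and 0.141 at 10 to 50 kb and -0.048 and -0.003 for facing genes. The exact permutation p-values were 0.6, 0.4, 0.1 and 0.1.

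**Figure D4:**
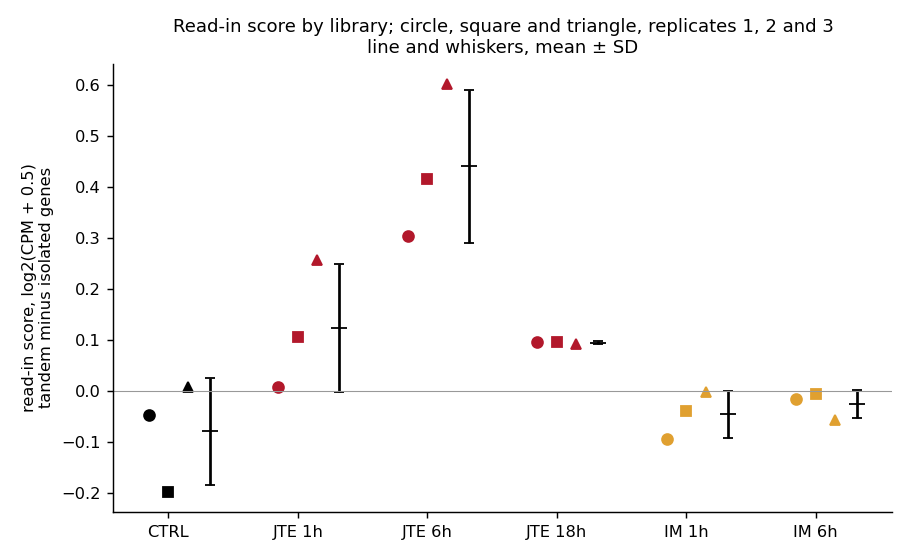
Score of each mRNA library (vertical axis, difference of mean log2(CPM + 0.5) between genes within 10 kb past an expressed same-strand gene and isolated genes), 1 point per library with the group mean. The JTE 6h libraries sit between 0.305 and 0.602, above the JTE 1h libraries (0.00885 to 0.256) and the JTE 18h libraries near 0.09.

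The genes that fell furthest encode proteins of varied function. PRMT6, an arginine methyltransferase of histones, counted 41.6, 51.5 and 54.7 CPM at 1 h and 8.55, 14.7 and 10.4 CPM at 6 h, a log2 fold change of -2.13 (SE 0.159, edgeR adjusted p = 1.08e-08). TOMM40L, a relative of the mitochondrial import channel TOMM40, counted 24.7, 28.9 and 23.4 CPM at 1 h and 5.21, 7.97 and 3.02 CPM at 6 h, a change of -2.26 (SE 0.241, adjusted p = 1.16e-06). NAA40, an acetyltransferase of the histone N-terminus, counted 45.6, 54 and 41.1 CPM at 1 h and 13.3, 18.9 and 8.53 CPM at 6 h, a change of -1.79. The groups did not overlap for any of these genes. CTRL libraries had 51.6 to 64.2 CPM for PRMT6, 27 to 29.3 for TOMM40L and 50.8 to 56.9 for NAA40.

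The other 9 of the 12 largest falls ran from -1.76 to -2.24 on the log2 scale, each without overlap between the groups. They were KRBA1, CCDC8, a subunit of the 3M complex, F2RL3, the thrombin receptor PAR4 of platelets, SPRYD3, GIPR, the receptor of glucose-dependent insulinotropic peptide, B3GALT6, which builds the linker of glycosaminoglycans, SLC29A2, a nucleoside transporter, GTPBP2, a GTPase of ribosome rescue, and TMEM158. Without JTE 1h replicate 3 TMEM158 no longer passed. Levels at 18 h differed among them, with KRBA1 at 15.5 to 20.8 CPM and GIPR at 8.94 to 11.6 CPM, close to their 1 h values of 14.8 to 20.5 and 9.22 to 11 CPM. PRMT6 at 24.8 to 28.4 CPM and CCDC8 at 15.2 to 20.7 CPM remained below their 1 h libraries. F2RL3 and TMEM158 also fell between IM 1h and IM 6h, by 1.74 and 2.08 on the log2 scale.

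The share of genes that fell was higher among short genes and among genes rich in G and C. Of protein-coding genes that span under 5 kb, 9.38% of 1098 fell, of those spanning 5 to 20 kb 9.05% of 3581, of those spanning 20 to 100 kb 2.8% of 5710 and of those over 100 kb 0.778% of 2315. The share that fell was 0.719% at an exonic GC content of up to 40% and 11.9% of 1742 genes at over 60%. By hexamer, 3.7% fell of genes with AATAAA, 4.76% with ATTAAA and 7.39% with neither. With only the 6 JTE libraries in the fit the shares that fell were 5.19% under 5 kb and 0.346% over 100 kb, 0.514% and 5.51% at the ends of the GC range, and 1.87% with AATAAA and 4.5% with neither hexamer. With the same-numbered replicates as a block in that fit they were, in the same order, 12.4% and 1.64%, 1.08% and 16.8%, and 5.29% and 9.58%. In that fit 6.5% of the 15558 genes it tested fell, whereas the shares by span, GC and hexamer count genes not tested there as not passing. The corresponding shares between IM 1h and IM 6h were 5.19%, 5.05%, 4.1% and 3.59% by span, 3.75% and 4.54% at the ends of the GC range, and 4.16%, 5.04% and 4.5% by hexamer. Single libraries also moved with GC content. Among protein-coding genes of 10 CPM or more in CTRL, those over 60% GC lay 0.656 lower than those up to 40% in JTE 6h replicate 1, as medians relative to the CTRL mean on the log2 scale, against 0.0763 and 0.187 lower in replicates 2 and 3. In JTE 1h replicate 3 they lay 0.22 higher. With a GC offset per library 5.57% of genes over 60% GC and 1.69% of those up to 40% fell. Without JTE 6h replicate 1 the shares were 8.44% and 0.873%, and without both of those libraries 7.35% and 1.64%.

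By type of transcript, 8.95% of 2414 long non-coding RNAs and 4.56% of 12704 protein-coding genes rose, and 3.65% and 4.76% fell. The types in this paragraph were not matched for level in CTRL, with which the share that rose also varied. Of 459 zinc finger genes named ZNF, 37 rose (8.06%, against 5.1% of all genes) and 26 fell (5.66%, against 4.13%), with a median log2 fold change of 0.15. Of 238 transcripts named -DT, which start at a promoter in the opposite direction, 10 rose and 10 fell (4.2% each), and of 510 named -AS, which lie antisense to a gene, 35 rose (6.86%) and 24 fell (4.71%), shares near those of all genes. With the same-numbered replicates as a block in the 6 libraries, 7.55% of 15558 genes tested rose and 6.5% fell. In that fit 46 of 425 ZNF genes rose and 31 fell, 14 of 149 -DT transcripts rose and 22 fell, and 49 of 357 -AS transcripts rose and 35 fell.

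CSTF3 and RBBP6, 2 of the 21 genes tested of the cleavage and polyadenylation machinery, rose (9.52%, against 5.1% of all genes), and 1 fell (4.76%, against 4.13%). CSTF3, the CstF77 subunit that binds beside the cutting complex, counted 56.1, 56.1 and 69.2 CPM at 1 h and 151, 122 and 139 CPM at 6 h, a log2 fold change of 1.18 (SE 0.101, edgeR adjusted p = 5.18e-08). RBBP6, which is needed to activate the cutting complex, counted 162, 208 and 163 CPM at 1 h and 339, 340 and 358 CPM at 6 h, a change of 0.96 (SE 0.127, adjusted p = 1.32e-05). CPSF4, the subunit that reads the hexamer together with WDR33, fell from 56.4, 60.5 and 57.9 CPM to 29.2, 39 and 30.9 CPM, a change of -0.82. PCF11, which links cutting to termination, did not pass between 1 h and 6 h (log2 fold change 0.53). Its levels were 160, 195 and 218 CPM at 1 h and 272, 257 and 299 CPM at 6 h without overlap, after 112, 88.1 and 108 CPM in CTRL. Against CTRL it passed at 1 h (0.90) and at 6 h (1.43). CPSF3, the gene of the target CPSF73, did not pass, with 150 to 175 CPM at 1 h and 153 to 203 CPM at 6 h (log2 fold change 0.11). The median of the 21 genes was 0.11, against 0.04 over all genes. None of 15 Integrator genes passed by edgeR or DESeq2, with 4 at an unadjusted p under 0.05, nor did any of 7 genes of histone 3′ end processing, with 2. With the replicate block NPAT, a coactivator of histone gene transcription, rose (0.65), the only one of these 7 genes to pass in that fit.

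CDK9, the kinase of P-TEFb that releases paused polymerase, fell from 33.5, 37.5 and 33.7 CPM to 12, 21.2 and 17.1 CPM, a log2 fold change of -1.06. Of 29 elongation and termination genes, PAF1, a subunit of the elongation complex named after it, also fell (-0.73), and ELL, an elongation factor, rose (0.73). With CDK9, 6.9% of this list fell and 3.45% rose, against 4.13% and 5.1% of all genes. Against CTRL, ELL passed lower at 1 h (-0.63) and did not pass at 6 h (0.11). HEXIM1, the inhibitor of P-TEFb, had -0.40 and XRN2, the exonuclease of termination, 0.00, and neither passed. ELL passed no longer without JTE 1h replicate 3, and PAF1 no longer without JTE 6h replicate 3. The median of the 29 genes was 0.00. Of 32 RNA decay genes 4 fell, where 4.13% of all genes fell, and none rose: the exosome subunits EXOSC2 (-1.04), EXOSC3 (-0.93) and EXOSC4 (-1.27), and SMG5 (-0.81), a factor of nonsense-mediated decay.

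Of 27 immediate early genes and other short-lived transcripts, 5 rose (18.5%, against 5.1% of all genes) and none fell, with a median log2 fold change of 0.40: BTG2 (1.09), an antiproliferative gene, JUNB (0.79), a subunit of AP-1, the mRNA decay factors ZFP36 (0.72) and ZFP36L1 (0.66), and the phosphatase DUSP1 (0.64). ZFP36 counted 5.92, 4.56 and 5.50 CPM at 1 h and 7.69, 8.99 and 9.58 CPM at 6 h, with 10.9 to 12.1 CPM in CTRL. Its change against CTRL was -1.10 at 1 h, where it passed, and -0.38 at 6 h, where it did not. The median of the list against CTRL was -0.42 at 1 h and -0.12 at 6 h. With the same-numbered replicates as a block 25 of the 27 were tested, of which 7 rose, CCN1 (0.85) and MYC (0.62) in addition to the 5, and EGR1 (-1.68) and FOSB (-0.94) fell. The calls of BTG2 and JUNB were each lost in 4 and that of ZFP36L1 in 5 of the 6 fits without 1 library. Those fits had no replicate block.

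SOCS3 and SOCS1, feedback inhibitors of cytokine signalling that STAT5 induces, were the members that rose of 19 STAT5 and ERK target genes (10.5%, against 5.1% of all genes). SOCS3 counted 14.4, 10.2 and 15.2 CPM at 1 h and 31.6, 28.3 and 28.4 CPM at 6 h, a log2 fold change of 1.15 (SE 0.258, edgeR adjusted p = 0.00343). In CTRL it had 25.5 to 34 CPM. SOCS1 rose by 1.42 from under 1 CPM and lost its call in 3 of 6 fits without 1 library. Its change against CTRL was -1.49 at 1 h and -0.07 at 6 h, and neither passed. The median of the 19 genes was 0.19, and with the replicate block BCL6 (0.73), CISH (0.66) and PHLDA1 (0.79) rose too and CCND1, cyclin D1, fell (-0.88). Between IM 1h and IM 6h, 11 of these 19 genes fell, against 3.62% of all genes, with a median of -1.15, and for 10 of the 19 the change under JTE-607 was higher than under imatinib by the test of the difference.

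MIR17HG, the host transcript of the miR-17 to miR-92a cluster, counted 14.7, 14.9 and 5.71 CPM at 1 h and 25, 33.9 and 15.3 CPM at 6 h, a log2 fold change of 1.07 (SE 0.304, edgeR adjusted p = 0.0206). CTRL cells had 48.1 to 68.9 CPM, so that all 1 h and 6 h libraries lay below CTRL. Its call was lost in 3 of 6 fits without 1 library, and that of MIR142HG (1.40) in 4. Against CTRL, MIR142HG had -1.03 at 1 h and 0.37 at 6 h and passed at neither. MIR17HG and MIR142HG were 22.2% of the 9 microRNA host genes tested, where 5.1% of all genes rose. The other 7 did not pass, and with the replicate block MIR223HG fell (-1.22). Of 20 KLF genes and related repressors and co-regulators, CITED2 rose (0.68) and HES4 fell (-0.99), near the shares of all genes. CITED2 lost its call in 4 of 6 fits without 1 library. It passed lower against CTRL at 1 h (-0.87) and did not pass at 6 h (-0.19). With the replicate block 19 of the 20 were tested, and BCL6, ID2 (0.73), ID3 (0.69) and SNAI1 (0.64) rose as well.

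Replication-dependent histone genes, whose transcripts normally end in a stem-loop and not in a poly(A) tail, are cut by the same nuclease. Of 40 such genes 3 rose (7.5%, against 5.1% of all genes) and none fell, with a median of 0.04. With the replicate block 34 were tested, of which H4C8 and H2BC9 rose and H2BC8 fell (-0.66). H4C8 counted 32.9, 40 and 32.6 CPM at 1 h and 60.7, 64.6 and 46.9 CPM at 6 h, a log2 fold change of 0.71, and then 143 to 151 CPM at 18 h. H2BC9 rose by 1.05 and H2BC14 by 1.88, the latter from 0.104 to 0.107 CPM at 1 h to 0.248 to 0.512 CPM at 6 h, and its call was lost in 5 of 6 fits without 1 library. At 18 h against CTRL, 19 of the 40 genes were higher, against 3.29% of all genes. Histone genes have near-identical copies, and only uniquely mapped reads were counted.

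Of 40 replication genes, POLA2 (-1.14), a subunit of the polymerase that primes synthesis, GINS4 (-0.88), RRM2 (-0.70) and RFC4 (-0.62) fell (10% of the 40) and CCNE2, cyclin E2, rose (1.00). Of 29 repair genes, RAD54L (-1.66), a motor of homologous recombination, RAD9A (-0.71) and FANCA (-0.66) fell (10.3%) and none rose, where 4.13% of all genes fell. RAD54L counted 62.9, 68.9 and 46.8 CPM at 1 h and 17.6, 27.4 and 11.7 CPM at 6 h, and 57.3 to 60.4 CPM at 18 h. Of 30 mitosis genes, CDC25B, a phosphatase that activates CDK1, fell (-1.02), which is 3.33%, against 4.13% of all genes. With the replicate block POLE (-0.62), the catalytic subunit of DNA polymerase epsilon, fell too and UBE2C (0.64), a ubiquitin-conjugating enzyme of mitosis, rose. RAD9A and FANCA no longer passed with the GC offset or without JTE 6h replicate 3. RRM2 no longer passed without JTE 6h replicate 3.

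Of 78 mitochondrial ribosomal protein genes 6 fell and none rose, which is 7.69% against 4.13% over all genes: MRPS18A (-0.88), MRPL12 (-0.82), MRPL57 (-0.68), MRPL43 (-0.63), MRPS17 (-0.62) and MRPS10 (-0.60). MRPL12, MRPL43 and MRPS17 each lost the call in 4 of 6 fits without 1 library, and with the replicate block MRPL27 (-0.63) fell as well. None of 82 cytosolic ribosomal protein genes passed by edgeR or DESeq2 (8 at an unadjusted p under 0.05), with log2 fold changes from -0.15 to 0.38 and a median of 0.10. By both tools, none passed of 37 proteasome genes and 13 protein genes of the mitochondrial genome (none at an unadjusted p under 0.05), of 26 snoRNA host genes (2 at that p), of 19 p53 target genes, 22 hnRNP genes and 19 genes of SR proteins and their kinases (3 each), and of 17 genes of cytokines and interferon response (1). With the replicate block TP53I3 (-0.68) of the p53 targets fell.

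EPOR, the erythropoietin receptor, fell from 17.3, 16.6 and 24.1 CPM to 7.31, 9.56 and 7.76 CPM (log2 fold change -1.23), the only member of 28 erythroid genes tested to pass. The 14 K562 markers did not pass by either tool, with none at an unadjusted p under 0.05, and had a median of 0.04. Of 10 megakaryocytic genes MPIG6B, an inhibitory platelet receptor, rose (2.26), and F2RL3 (-2.13) and the collagen receptor GP6 (-1.66) fell. That is 10% higher and 20% lower, against 5.1% and 4.13% of all genes. With the replicate block 9 of the 10 were tested, and THBS1 (-1.05), thrombospondin 1, and TUBB1 (-0.63), a platelet tubulin, fell too. HSF1, the heat shock regulator, fell (-0.86), while the other 16 heat shock genes tested did not pass, and HSF1 did not pass with the GC offset. Of 20 ATF4 stress genes VLDLR rose (1.91), a call lost in 5 of 6 fits without 1 library, and of 30 ribosome biogenesis genes POLR1A fell (-0.66). EPOR, HSF1, VLDLR and POLR1A made up 3.57%, 5.88%, 5% and 3.33% of their lists, where 5.1% of all genes rose and 4.13% fell. DUSP1, HES4, RFC4, MRPS10 and POLR1A each lost the call in 2 of the 6 fits without 1 library and MRPL57 in 1. The lists overlap in part, and F2RL3 counts among the largest falls too.

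**Figure D5:**
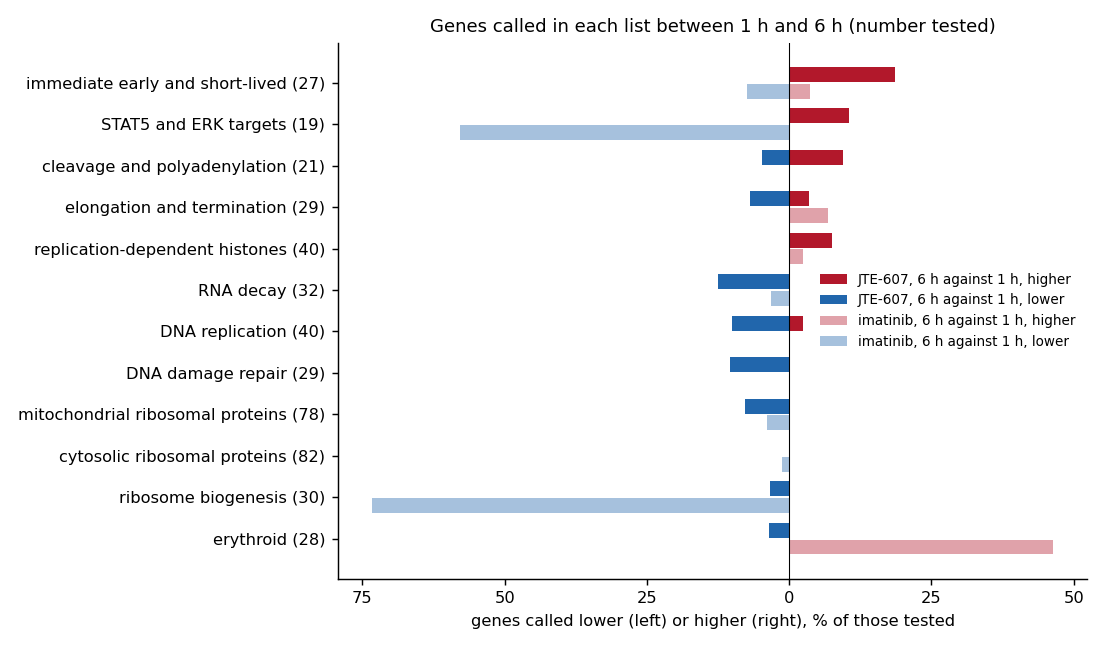
Percentage of the tested genes of 12 of the lists that were lower (bars to the left) or higher (bars to the right) at 6 h than at 1 h, for JTE-607 (dark bars) and imatinib (light bars), with the number tested in brackets. Under JTE-607 the immediate early list reaches 18.5% higher and 4 of the 32 RNA decay genes are lower, whereas under imatinib the ribosome biogenesis list reaches 73.3% lower and the erythroid list 46.4% higher.

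The change between 1 h and 6 h under JTE-607 was tested against the change over the same hours under imatinib, which rests on no shared library. It differed for 1806 genes (9.98%), higher under JTE-607 for 837 (4.63%) and lower for 969 (5.36%). Scaled to library size only, the split was 621 and 1230. AOC3 (difference 4.33, SE 0.907, edgeR adjusted p = 0.00315), ZDHHC11 (4.31), AOC2 (3.84) and PYGM (3.62) had the largest positive differences by the rule used for naming, and each had a negative imatinib change that did not pass. AOC3 and ZDHHC11 no longer passed this test without IM 1h replicate 3. The largest negative differences were ARHGAP23 (-3.53), TNS1 (-2.96), tensin of focal adhesions, GBGT1 (-2.85), a glycosyltransferase, and AQP1 (-2.81), the water channel of red cells. ARHGAP23, TNS1 and AQP1 rose under imatinib, by 2.60, 2.54 and 2.86, and did not pass under JTE-607, whereas GBGT1 fell under JTE-607 by 2.29 and did not pass under imatinib. Of 28 erythroid genes, 13 rose under imatinib, against 4.58% of all genes, and for 7 the JTE-607 change was lower by the test of the difference. Of 30 ribosome biogenesis genes 22 fell under imatinib, against 3.62% of all genes, and for 15 the JTE-607 change was higher.

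Between IM 1h and IM 6h, 1483 genes passed (8.2%), 828 higher and 655 lower (3.62%), and 983 passed without IM 6h replicate 3. Of the 923 genes that rose between JTE 1h and JTE 6h, 58 (6.28%) also rose in imatinib, against 4.58% of all genes, and of the 748 that fell 65 (8.69%) also fell, against 3.62%. Between KCl 1h and KCl 3h, 596 genes passed (3.29%), and 364 without KCl 1h replicate 2. Of the 923 risers, 50 were higher and 49 lower there, against 1.37% and 1.92% of all genes, and of the 748 fallers 2 were higher and 13 lower.

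Nuclear RNA after 1 h of JTE-607 comes from other libraries than the 6 h against 1 h comparison. It differed from nuclear CTRL for 1868 of 21929 genes (8.52%), 1536 higher (7%) and 332 lower (1.51%). Of the 923 genes that rose in mRNA between 1 h and 6 h, 883 were tested in nuclear RNA. Of these, 356 (40.3%, against 7% of all genes, and 23.2% of the 1536) were already higher in nuclear RNA at 1 h and 17 (1.93%) were lower. Among the 181 risers within 10 kb past an expressed same-strand gene, 114 of 174 tested (65.5%) were higher in nuclear RNA, and among the 167 isolated risers 27 of 155 (17.4%). Read from the nuclear side, 946 of the 1536 genes were tested in mRNA, where 37.6% rose and 0.211% fell between 1 h and 6 h, with a median log2 fold change of 0.99. TSPOAP1, AOC3, IQCN and BAAT had nuclear changes of 3.98, 3.46, 3.84 and 3.09. Of the 748 genes that fell, 739 were tested in nuclear RNA, where 25 (3.38%) were lower at 1 h and 2 (0.271%) were higher.

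At 18 h the mRNA differed from CTRL for 975 genes (5.39%), 596 higher (3.29%) and 379 lower (2.09%), in libraries that the 6 h against 1 h comparison does not use. Without JTE 18h replicate 1 or 3 the count was 629 or 577, and scaled to library size only 719 were higher and 253 lower. Of the 923 risers, 181 (19.6%, and 30.4% of the 596) were higher at 18 h than in CTRL and 2 were lower. Of the 748 fallers, 109 (14.6%, and 28.8% of the 379) were lower and 8 were higher. The risers had a median log2 fold change of 0.51 at 18 h against CTRL and the fallers -0.28, against -0.01 over all genes. TSPOAP1 (6.70), AJM1 (2.62), LINC01963 (2.21), ZNNT1 (1.66), CFAP70 (1.41), CSTF3 (0.66) and RBBP6 (0.65) were among the named risers still higher at 18 h. CCDC8 (-1.12), PRMT6 (-1.14), F2RL3 (-1.26), SPRYD3 (-0.95), B3GALT6 (-0.67) and SLC29A2 (-0.97) were among the named fallers still lower. With only the 6 JTE libraries in the 6 h against 1 h fit, the shared counts were 107 and 71.

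At the fold threshold, DYRK1A (0.6001) and MAPK11 (-0.6013) were the nearest genes inside it and CLCC1 (-0.6000) and PVR (-0.5999) the nearest outside it. DYRK1A counted 88.4, 105 and 89.6 CPM at 1 h and 127, 154 and 147 CPM at 6 h, and CLCC1 65.4, 62 and 73.9 CPM at 1 h and 42.7, 45.5 and 44.6 CPM at 6 h. The groups overlapped for neither gene, and each of these 4 genes crossed the threshold in 3 or 4 of the 6 fits without 1 library. Against CTRL, DYRK1A changed by -0.60 at 1 h and 0.002 at 6 h and passed at neither.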

How the data were processed

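The files hold raw counts of read pairs per gene, deposited by the authors for 27 mRNA and 15 nuclear RNA libraries. Per the labels and the study's methods, the authors trimmed and deduplicated the reads, aligned them to hg38 (GRCh38.p14) with STAR, kept uniquely mapped reads with introns of limited length, and counted them over exons with featureCounts. The kit marks strand, but no strand option was used, so antisense reads were counted. Pairs over several genes were left out, which lowers the counts of overlapping genes. The annotation release is not given in the sources used here. Of 58243 gene IDs, 57532 are in GENCODE 44, and 41836 have a symbol. No column of counts was without a sample.

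From the counts, CPM and fold changes came from the quasi-likelihood test of edgeR 4.0.16 (R 4.3.3; TMM factors, filterByExpr, robust dispersion), with all 27 mRNA libraries in 1 fit and 1 term per group; nuclear libraries were fitted apart. The common dispersion was 0.0284. A gene passed if its log2 fold change was over 0.6 in size and its p, adjusted by Benjamini-Hochberg, was under 0.05. Every adjusted p printed is from this test. Scores used log2(CPM + 0.5) and were compared by exact 2-sided permutation over libraries, whose smallest p is 0.1. The scripts were tested on simulated counts. Intervals of count ratios are exact, at 95%, and cover counting error only. Same-numbered replicates deviated together (correlation of JTE 6h with JTE 1h deviations over 8817 genes 0.74, 0.65 and 0.80 for numbers 1 to 3, taken from the sample titles), so the numbers pair the samples, and the paired fit is given where it changes a call. Replicates differed by more than sampling noise (chi-square per gene 17.5 to 40.2 between libraries of a group), so each library counted as 1 replicate. The GC offset is a smooth curve of log counts on exonic GC content, fitted per library and chosen after seeing the data, as was leaving out the pair of libraries of most unlike GC slope.

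The genes named were the 12 largest rises and falls with a symbol, 10 CPM or more in the higher group and no overlap of libraries, members of the gene lists, the 4 largest differences from imatinib in each direction, the 5 largest rises past an expressed gene with those upstream genes, and the 4 genes nearest the fold threshold. The members and lists were chosen with earlier results of these data known. Alternatives were DESeq2 1.42.0, other scaling factors, filters and fold limits, fewer libraries in the fit, each library left out, and the replicate block. The fits without 1 library were unpaired.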

Additional observations from a re-analysis of the deposited data

Results flagged for a closer look

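One kind of result was singled out: a change between 1 h and 6 h that differed between JTE-607 and imatinib by the test of the difference itself, with 3 libraries in each of the 4 groups. It held for 1806 of 18095 genes by edgeR's quasi-likelihood test. The named genes with a higher change under JTE-607 were AOC3 (difference 4.331 on the log2 scale), ZDHHC11 (4.31), AOC2 (3.843) and PYGM (3.62), and those with a lower change were ARHGAP23 (-3.528), TNS1 (-2.955), GBGT1 (-2.853) and AQP1 (-2.809). In imatinib, ARHGAP23 had mean levels of 1.67 CPM at 1 h and 10.2 CPM at 6 h, TNS1 9.86 and 57.5 CPM, and AQP1 3.2 and 23.5 CPM.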

How the results depend on the processing

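The count of genes that passed between JTE 1h and JTE 6h was 1671 and stayed within 1.5 times that under DESeq2 (1723), other scaling factors, no low-count filter, the adjusted p alone, the JTE and CTRL libraries alone and the GC offset (1504). It was 800 with only the 6 libraries and 567 with genes of 10 CPM or more, where 136 rose and 431 fell, so that risers made up 24% of the genes that passed and not 55.2%. It ran from 1288 (without JTE 6h replicate 3) to 1869 (without JTE 6h replicate 2). With the same-numbered replicates as a block it was 2186 in the 6 libraries, 1175 higher and 1011 lower, of which 1529 passed in the unpaired fit as well (91.5% of the 1671). Of the 77 named genes that passed, 50 did so in every fit without 1 library, 8 were lost with the GC offset, 2 under DESeq2 and 1 with the block, which was DYRK1A, and no named gene reversed under any alternative. The block in the 6 libraries changed no other call of a named gene that it could test, beside ARHGAP23, CLCC1 and PVR, which then passed, as did the members of the gene lists given in the text with the block. LDHC and H2BC14 were not tested in that fit.

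The difference from imatinib counted 1128 genes in the 12 libraries alone, 1049 at 10 CPM or more, 2521 with the block and 1350 to 1848 with 1 library left out. JTE 18h against CTRL counted 1663 by the adjusted p alone, 361 at 10 CPM or more, 1444 with the block and 577 to 874 with 1 library left out. IM 6h against IM 1h counted 2361 by the adjusted p alone, 762 at 10 CPM or more and 983 to 1535 with 1 library left out. KCl 3h against KCl 1h counted 990 without the low-count filter, 224 at 10 CPM or more, 294 in the libraries of the 2 groups alone and 364 to 588 with 1 library left out. JTE 1h against CTRL counted 237 without the filter, 62 in the CTRL and JTE libraries, 258 with the block, 34 at 10 CPM or more, 5 in the libraries of the 2 groups and 62 to 158 with 1 library left out. JTE 6h against CTRL counted 689 at 10 CPM or more and 1891 to 2623 with 1 library left out. The nuclear comparison counted 1751 under DESeq2 and 1266 to 1649 with 1 library left out. Fewer genes are tested at 10 CPM or more, and fewer libraries inform the spread in the smaller fits; otherwise the cause was not tested. The score difference of 0.32 ran from 0.17 to 0.39 over pseudocounts, distances and scalings and from 0.24 to 0.38 with 1 library left out, and by pairs its sign-flip p was 0.25, the smallest for 3 pairs.

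With 3 libraries a group, genes of a few counts rest on single libraries, and fold changes against 0 counts have no upper limit. The ratio of LINC02798, against 1 count, had an upper limit of 3020.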
